A study of Mus musculus with 12 samples.

Results

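Costimulatory and checkpoint genes of the macrophage surface were followed across 4 groups of mouse bone marrow-derived macrophages. The 9 genes were taken by symbol and are 9 of the 56980 gene IDs in the counts table: Cd40 (ENSMUSG00000017652), Cd80 (ENSMUSG00000075122), Cd86 (ENSMUSG00000022901), Cd274 (ENSMUSG00000016496), Pdcd1lg2 (ENSMUSG00000016498), Icosl (ENSMUSG00000000732), Vsir (ENSMUSG00000020101), Havcr2 (ENSMUSG00000020399) and Lgals9 (ENSMUSG00000001123). Macrophages were grown from bone marrow for 7 days in medium conditioned by L929 cells, and RNA was sequenced from 12 libraries. The WT groups came from mice labelled wildtype and the cKO groups from mice whose genotype label reads RankCre-Regnaes3cKO, a conditional deletion of Regnase-3 (gene Zc3h12c) with a Cre named after Rank (gene Tnfrsf11a). Each genotype was left unstimulated (WT_M0 and cKO_M0) or, in the groups WT_M1 and cKO_M1, stimulated with 10 ng/ml of interferon-gamma and 100 ng/ml of lipopolysaccharide (LPS), with 3 libraries in each of the 4 groups. The labels name no strain, age, sex, time of stimulation or wild-type control carrying the Cre, and do not say whether the libraries of a group came from separate mice. The p-values therefore describe variation among these libraries, which may be technical. The stated question of the series is what Regnase-3 does when Rank-positive macrophages are polarized.

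A T cell that recognizes antigen on a macrophage is also told whether to respond, and the genes described here carry that message. CD80 and CD86 on the macrophage bind CD28 on the T cell and costimulate it, or bind CTLA-4 and restrain it, while ICOS ligand engages ICOS. PD-L1 (Cd274) and PD-L2 (Pdcd1lg2) bind PD-1 and inhibit the T cell, VISTA (Vsir) is an inhibitory member of the same B7 family, and galectin-9 (Lgals9) is a ligand of TIM-3 (Havcr2). CD40 is the receptor through which T cells carrying CD40 ligand in turn activate the macrophage. LPS and interferon-gamma, acting through NF-kB and IRF factors among others, are known inducers of CD40, CD86 and PD-L1 in macrophages.

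Library totals ran from 41721452 to 42197986 counts, and 15110 genes passed the filter on low counts, among them 9 of the 9 genes described. Levels are given as CPM, which are counts corrected for library size with TMM factors, each mean with its SD over 3 libraries. A gene was called when its adjusted p in edgeR's quasi-likelihood test was under 0.05, with Benjamini-Hochberg adjustment over the 15110 genes. Zc3h12c, the targeted gene, stood at 16.4 ± 0.773 CPM in WT_M0 and 15.6 ± 2.57 in cKO_M0 and was not called (adjusted p = 0.81), and at 176 ± 16.6 in WT_M1 and 109.6 ± 15.2 in cKO_M1 (log2 fold change -0.68, SE 0.12, adjusted p = 0.00101). Counts per gene do not show a deleted exon, so the M0 value does not test the label. Macrophage markers (9 of 9 tested) summed to between 14810.6 and 19196.7 CPM in every library, but the single markers were not steady. With stimulation 5 of the 9 were called higher and 3 lower in each genotype. Of all tested genes, 71.4% were called with stimulation in WT and 70.2% in cKO. In WT, Lyz2 went from 9855 ± 2107 to 4878 ± 859 CPM and Adgre1 from 2315 ± 130 to 4237 ± 263.

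The sequences upstream of 4 of the genes are shown because these genes differ in how they answered stimulation: Cd274, Lgals9 and Pdcd1lg2 rose and Icosl fell. They are RefSeq sequences of the build GRCm38.p6, not the GRCm39 build of the counts, each holding the 250 bases before the gene's start, read 5′ to 3′ on the gene's own strand. Of the 9 genes, 7 were found in the promoter table. Cd40 and Cd86, which also rose with stimulation, were not in it and were not searched. The windows are chr19:29367188-29367437 on the plus strand for Cd274, chr19:29410669-29410918 on the plus strand for Pdcd1lg2, chr11:78984925-78985174 on the minus strand for Lgals9 and chr10:78069118-78069367 on the plus strand for Icosl. Capitals mark the matches to the motifs searched, lower case the rest.
Cd274: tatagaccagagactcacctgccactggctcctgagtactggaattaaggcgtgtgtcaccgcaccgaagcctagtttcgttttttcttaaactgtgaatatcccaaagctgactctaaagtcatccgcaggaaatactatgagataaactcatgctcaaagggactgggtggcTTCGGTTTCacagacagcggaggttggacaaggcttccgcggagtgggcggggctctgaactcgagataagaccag
Lgals9: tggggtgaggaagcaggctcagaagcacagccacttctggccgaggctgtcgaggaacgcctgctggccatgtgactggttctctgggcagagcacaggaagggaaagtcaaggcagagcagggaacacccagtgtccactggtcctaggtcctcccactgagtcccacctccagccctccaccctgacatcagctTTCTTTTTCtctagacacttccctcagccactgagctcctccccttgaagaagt
Pdcd1lg2: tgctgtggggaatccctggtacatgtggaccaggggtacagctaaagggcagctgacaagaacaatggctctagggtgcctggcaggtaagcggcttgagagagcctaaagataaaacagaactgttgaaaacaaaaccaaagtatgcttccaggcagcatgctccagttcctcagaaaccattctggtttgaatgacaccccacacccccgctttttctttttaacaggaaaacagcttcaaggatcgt
Icosl: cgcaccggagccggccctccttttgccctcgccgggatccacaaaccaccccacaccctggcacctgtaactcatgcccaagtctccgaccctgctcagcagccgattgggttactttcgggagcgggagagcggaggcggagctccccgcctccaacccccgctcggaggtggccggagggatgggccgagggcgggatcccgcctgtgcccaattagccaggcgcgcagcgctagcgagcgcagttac

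Results are given for 2 motifs, each searched on both strands. GAAANNGAA, the core of the interferon-stimulated response element bound by IRF factors, was found in 2 of the 7 windows, against 7.13% of the 32851 windows of the same length in the table. The match was TTCGGTTTC in Cd274, from 76 to 68 bases before the start, and TTCTTTTTC in Lgals9, from 54 to 46 bases before the start, both on the opposite strand of the motif as written. GGANNTTCC, a kappa B site of NF-kB, was in 0 of the 7 windows (3.59% of all windows). A match is a description of the letters, and its absence concerns these windows only. Cd274 and Pdcd1lg2 are neighbours on chromosome 19 with no protein-coding gene between them in the GRCm38 gene order.

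The gene with the highest level of the set was Vsir in unstimulated and Cd274 in stimulated macrophages, and Lgals9 came next in all 4 groups. Levels of different genes were compared per length, as counts per kilobase of gene scaled to the same sum in every library. In WT_M0 the inhibitory B7 member Vsir led with a per-length level of 506 ± 30.3 (SD, n = 3), followed by Lgals9 at 304 ± 31.4, Havcr2 at 79.0 ± 6.61, Cd274 at 41.98 ± 0.902 and Icosl at 23.9 ± 1.67. The costimulatory genes came next, Cd80 at 12.5 ± 0.642, Cd40 at 11.9 ± 1.19 and Cd86 at 9.14 ± 1.69, and these neighbours in the order overlapped between libraries. Pdcd1lg2 was last at 0.353 ± 0.171. In WT_M1 Cd274 led at 2505 ± 120.0, followed by Lgals9 at 562 ± 30, Cd40 at 177 ± 10.0, Cd86 at 130.1 ± 5.81, Vsir at 116 ± 8.75 and Havcr2 at 19.4 ± 5.55. The last places were held by Pdcd1lg2 at 4.81 ± 0.517, Cd80 at 4.78 ± 1.19 and Icosl at 2.49 ± 0.220. The libraries of Cd86 overlapped those of Vsir, and those of Pdcd1lg2 overlapped those of Cd80.

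The order in the cKO groups differed from WT in few places. In cKO_M0 the same order of means held, but Cd274 at 30.3 ± 2.47 and Icosl at 27.4 ± 3.07 now overlapped, while Cd80 at 14.96 ± 0.944 stood clear of Cd40 at 13.2 ± 0.801. In cKO_M1 Cd80 at 7.68 ± 1.12 stood above both Icosl at 4.21 ± 0.529 and Pdcd1lg2 at 3.79 ± 0.355, and Pdcd1lg2 became the lowest, although its libraries overlapped those of Icosl.

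**Figure D1:**
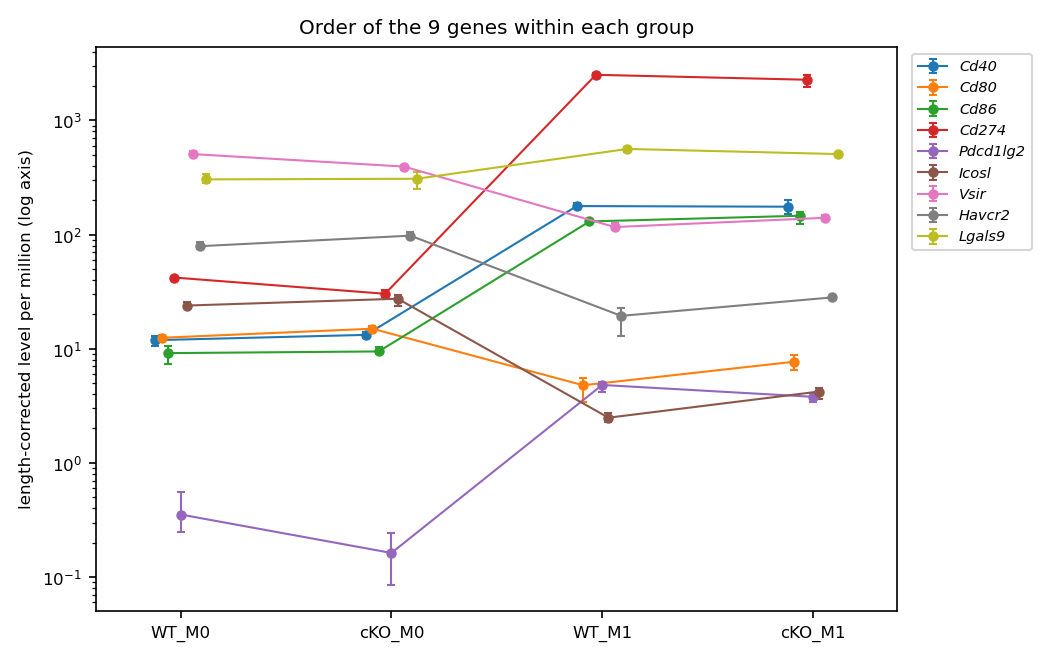
Length-corrected level, scaled to the same sum in every library (log axis), of the 9 genes in the 4 groups, with points at the mean of 3 libraries and bars from the lowest to the highest library. Cd274 moves from a per-length level of 41.98 in WT_M0 to 2505 in WT_M1, while Vsir, the highest at 506 in WT_M0, falls to 116.

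Stimulation changed every one of the 9 genes in both genotypes, 5 upward (Cd40, Cd86, Cd274, Pdcd1lg2 and Lgals9) and 4 downward (Cd80, Icosl, Vsir and Havcr2). Of all tested genes, 71.4% were called in WT (34.2% higher and 37.1% lower) and 70.2% in cKO (34.2% higher and 36% lower), so a call by itself sets the 9 genes little apart. The groups did not overlap for 9 of the 9 genes in either genotype, against 75.6% of all tested genes in WT and 72.7% in cKO. The median log2 fold change of the 9 genes was 1.52 in WT and 1.28 in cKO, beside -0.07 and -0.04 over all tested genes. With 5 genes up and 4 down, this median is the value of Lgals9 and does not describe a shared rise. With library totals in place of TMM factors the median of all genes moved to -0.65 and -0.58, and the called genes that were higher went from 48.0% to 23.5% in WT and from 48.7% to 24.2% in cKO. The direction and the call of the 9 genes held under that scaling in both genotypes. Values are from bulk RNA, in which fewer cells of a type and less RNA per cell cannot be told apart.

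PD-L1 gave the largest fold change of the set. Cd274 had 35.9, 36.2 and 36.4 CPM in WT_M0 and 3455, 3486 and 3142 CPM in WT_M1, a fold of 93.0 with a 95% interval from 79.8 to 108.3 (log2 fold change 6.54, SE 0.10, adjusted p = 6.3e-16). In cKO it had 24.96, 28.3 and 26.8 CPM before and 2677, 3018 and 3147 CPM after, a fold of 110.5 with an interval from 94.6 to 128.9 (log2 fold change 6.79, SE 0.10, adjusted p = 3.6e-16). By p-value Cd274 ranked 2 of the 15110 genes in WT and 3 in cKO. The unstimulated libraries lay close together and far below every stimulated library. PD-L2 answered from a much lower base. Pdcd1lg2 had 6, 6 and 13 counts in WT_M0 and 103, 128 and 124 counts in WT_M1, which is 0.164 ± 0.0793 against 3.50 ± 0.434 CPM (log2 fold change 4.39, SE 0.31, adjusted p = 3.2e-09). In cKO it had 6, 2 and 4 counts before and 105, 84 and 94 after (log2 fold change 5.05, SE 0.35, adjusted p = 2.7e-09), so its unstimulated level rests on few counts.

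The receptor CD40 and the ligand CD86 rose by similar amounts. Cd40 had 10.7, 8.45 and 9.76 CPM in WT_M0 and 212, 246 and 214 CPM in WT_M1, a fold of 23.3 with an interval from 19.0 to 28.5 (log2 fold change 4.54, SE 0.14, adjusted p = 1.6e-13). In cKO its fold was 19.7 with an interval from 16.1 to 24. Cd86 had 8.45, 6.25 and 9.21 CPM in WT_M0 and 179.9, 185 and 165 CPM in WT_M1. Its fold in WT was 22.1 with an interval from 17.7 to 27.6 (log2 fold change 4.47, SE 0.15, adjusted p = 5.4e-13). In cKO its fold was 22.9 with an interval from 18.3 to 28.6. All stimulated libraries of both genes stood above all unstimulated libraries. Galectin-9 rose less: Lgals9 had 149.9, 170.1 and 143 CPM in WT_M0 and 456, 431 and 446 CPM in WT_M1. Its log2 fold change was 1.52 in WT (SE 0.11, adjusted p = 3.1e-09) and 1.28 in cKO (SE 0.11). With library totals these 2 values of Lgals9 came down to 0.94 and 0.75.

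CD80, the other ligand of CD28, went the opposite way to CD86. Cd80 had 10.7, 11.4 and 10.8 CPM in WT_M0 and 7.55, 4.84 and 7.21 CPM in WT_M1 (log2 fold change -0.75, SE 0.15, adjusted p = 0.000433). In cKO it had 13.5, 14.0 and 12.9 CPM before and 10.8, 11.6 and 8.37 CPM after (log2 fold change -0.39, SE 0.15, adjusted p = 0.0271). The groups did not overlap in either genotype, but in cKO leaving out cKO_M0 replicate 1 gave an adjusted p of 0.0519, leaving out replicate 2 gave 0.0638, and leaving out cKO_M1 replicate 9 gave 0.136 with a log2 fold change of -0.26. With library totals the log2 fold changes were -1.33 in WT and -0.93 in cKO.

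ICOS ligand, VISTA and TIM-3 fell as well. Icosl had 25.3, 25.2 and 28.2 CPM in WT_M0 and 4.59, 4.30 and 3.87 CPM in WT_M1 (log2 fold change -2.62, SE 0.13, adjusted p = 5.7e-11), and changed by -2.13 (SE 0.13) in cKO. Vsir had 598, 569 and 643 CPM in WT_M0 and 205, 211 and 231 CPM in WT_M1 (log2 fold change -1.48, SE 0.08, adjusted p = 8.1e-11). Its log2 fold change in cKO was -0.93 (SE 0.08). With library totals the Vsir values were -2.07 in WT and -1.46 in cKO. Havcr2 had 50.2, 55.1 and 47.9 CPM in WT_M0 and 22.6, 13.5 and 22.3 CPM in WT_M1 (log2 fold change -1.39, SE 0.14, adjusted p = 3.3e-07), and changed by -1.23 (SE 0.14) in cKO. Each of these genes had every stimulated library below every unstimulated library of its genotype.

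**Figure D2:**
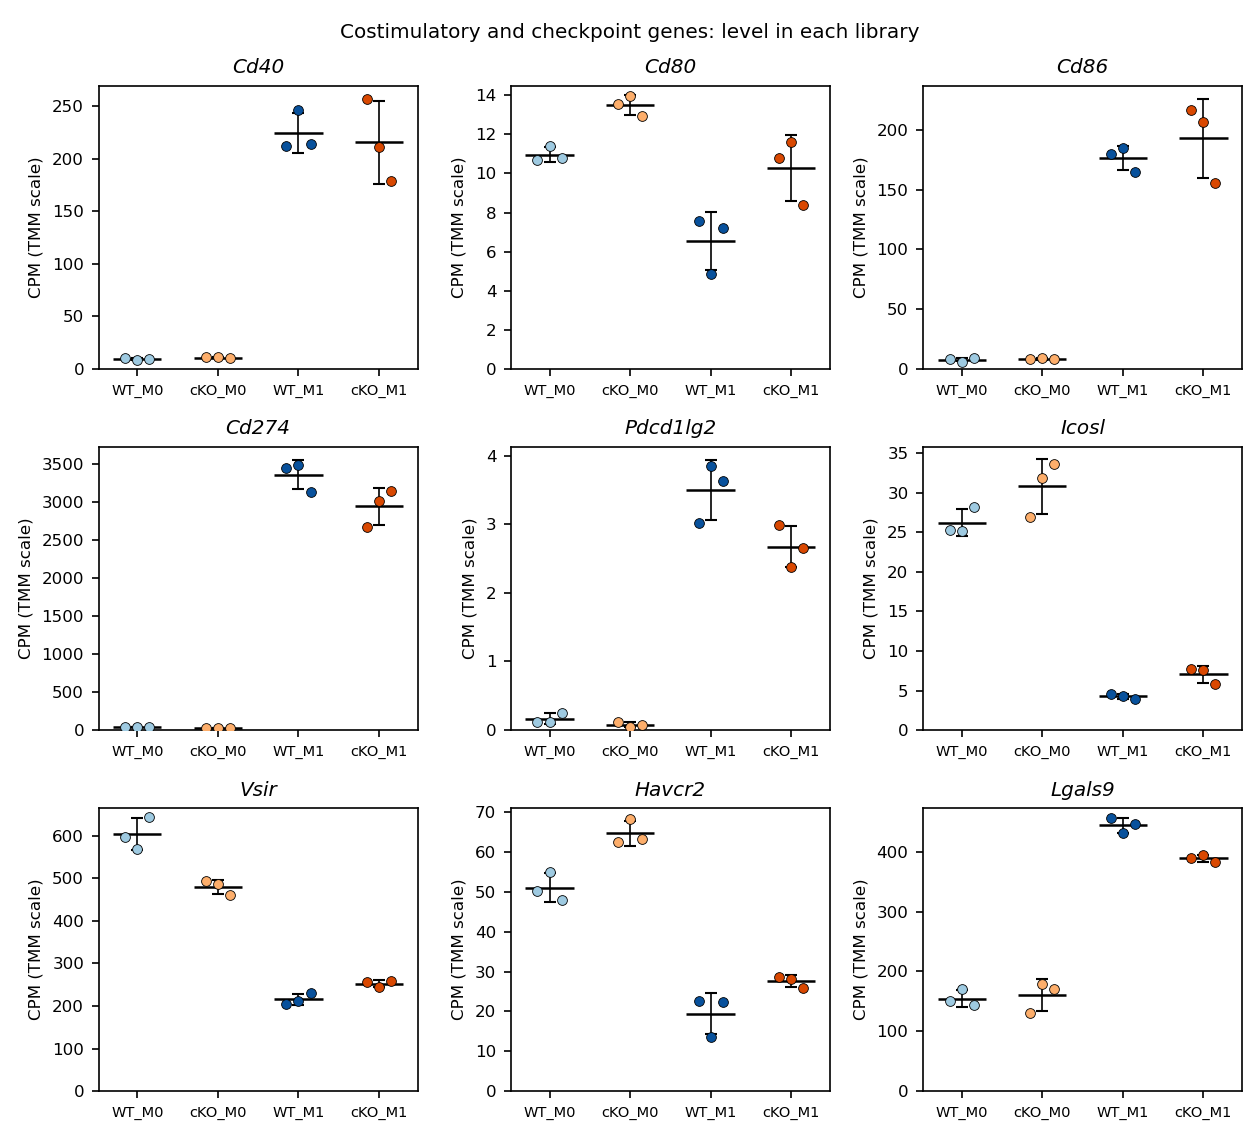
Level of each of the 9 genes in each library, in CPM on the TMM scale (linear axes from 0, a separate range per gene), with a point per library, a line at the mean and bars of 1 SD (n = 3). Cd40, Cd86, Cd274, Pdcd1lg2 and Lgals9 are higher in the M1 groups and Cd80, Icosl, Vsir and Havcr2 lower.

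In unstimulated macrophages, 2 of the 9 genes were called between genotypes, and both were inhibitory B7 ligands that were lower in cKO. Of all tested genes 1.61% were called in this comparison, 0.662% higher and 0.953% lower. Cd274 had 35.9, 36.2 and 36.4 CPM in WT_M0 against 24.96, 28.3 and 26.8 CPM in cKO_M0 (log2 fold change -0.44, SE 0.08, adjusted p = 0.0261). Vsir had 598, 569 and 643 CPM against 494, 486 and 462 CPM (log2 fold change -0.33, SE 0.08, adjusted p = 0.0463). Every cKO_M0 library of both genes lay below every WT_M0 library. The size of the Cd274 difference stayed between -0.48 and -0.39 over all alternatives, but the call was lost without WT_M0 replicate 4 (adjusted p = 0.0972) or 6 (0.183) and without cKO_M0 replicate 2 (0.0551) or 3 (0.164). The Vsir call was lost with library totals (adjusted p = 0.0504) and without WT_M0 replicate 4 or 6, cKO_M0 replicate 1, 2 or 3, WT_M1 replicate 10 or 12, or cKO_M1 replicate 8, with a value between -0.37 and -0.28 throughout.

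The other 7 genes were not called in M0. Havcr2 had 50.2, 55.1 and 47.9 CPM in WT_M0 and 62.5, 68.3 and 63.3 CPM in cKO_M0, groups that did not overlap (log2 fold change 0.34, SE 0.14, adjusted p = 0.205). It passed with no filter on low counts (adjusted p = 0.0213), in a fit of these 6 libraries alone (0.0424) and without WT_M1 replicate 11 (0.0459). Cd80 likewise did not overlap, at 10.7, 11.4 and 10.8 against 13.5, 14.0 and 12.9 CPM (log2 fold change 0.30, SE 0.15, adjusted p = 0.287). Pdcd1lg2, with at most 13 counts in a library, had a log2 fold change of -1.05 with a 95% interval from -2.06 to -0.03 (adjusted p = 0.256). This value was -0.58 without WT_M0 replicate 6 and -0.73 without cKO_M0 replicate 2, and leaving out other single libraries took it as far as -1.43. Its groups stayed apart only narrowly, with 6 counts in the lowest WT_M0 library and 6 in the highest cKO_M0 library. In all, the groups did not overlap for 5 of the 9 genes, against 26.2% of all tested genes. The last 4 genes overlapped between genotypes. In cKO_M0, Cd40 had 11.1, 11.3 and 10.5 CPM, Cd86 had 8.10, 8.95 and 8.23, Icosl had 27.0, 31.9 and 33.6, and Lgals9 had 129.9, 179.7 and 170.4. The log2 fold change was 0.19 for Cd40 (95% interval from -0.08 to 0.46), 0.08 for Cd86 (from -0.22 to 0.38), 0.23 for Icosl (from -0.01 to 0.48) and 0.05 for Lgals9 (from -0.17 to 0.27). The median over the 9 genes was 0.08, beside 0.01 over all tested genes.

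After stimulation, 4 of the 9 genes were called between genotypes and all 4 were higher in cKO: Cd80, Icosl, Vsir and Havcr2. The stimulation values of these 4 genes, given above, share the M1 libraries with this comparison. Of all tested genes 18.6% were called, 8.98% higher and 9.67% lower. Icosl had 4.59, 4.30 and 3.87 CPM in WT_M1 and 7.73, 7.57 and 5.77 CPM in cKO_M1 (log2 fold change 0.72, SE 0.14, adjusted p = 0.00199). Cd80 had 7.55, 4.84 and 7.21 CPM against 10.8, 11.6 and 8.37 CPM (log2 fold change 0.65, SE 0.16, adjusted p = 0.00910). Neither gene overlapped between the groups, and WT_M1 replicate 11 held the lowest Cd80 value. Icosl was called under each of the alternatives run, with values from 0.64 to 0.83. Among the alternatives run, Cd80 lost its call without cKO_M1 replicate 8 only (log2 fold change 0.54, adjusted p = 0.0589) and had 0.46 (adjusted p = 0.0440) without WT_M1 replicate 11.

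Havcr2 and Vsir were higher by smaller margins. Havcr2 had 22.6, 13.5 and 22.3 CPM in WT_M1 against 28.7, 28.0 and 25.8 CPM in cKO_M1 (log2 fold change 0.50, SE 0.14, adjusted p = 0.0249). WT_M1 replicate 11 was far below the other two libraries of its group, and without it the log2 fold change was 0.28 and no longer called (adjusted p = 0.0559). The call was also lost without cKO_M1 replicate 7 (0.0707) or 8 (0.0849) and in a fit of these 6 libraries alone (0.0729). Vsir had 205, 211 and 231 CPM against 256, 244 and 258 CPM (log2 fold change 0.23, SE 0.08, adjusted p = 0.0472), again without overlap. This call sat at the threshold: it was lost with DESeq2's size factors (adjusted p = 0.0684), with no filter on low counts (0.158), in a fit of these 6 libraries alone (0.124) and without WT_M0 replicate 4 or 6, any cKO_M0 or cKO_M1 replicate, or WT_M1 replicate 10 or 11, with values from 0.19 to 0.28.

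The genes that stimulation raised showed no called genotype difference in M1. Cd274 had 3455, 3486 and 3142 CPM in WT_M1 and 2677, 3018 and 3147 CPM in cKO_M1, groups that overlapped (log2 fold change -0.19, 95% interval from -0.36 to -0.02, adjusted p = 0.118). Lgals9 had 456, 431 and 446 CPM against 389.7, 394 and 383 CPM, groups that did not overlap (log2 fold change -0.19, interval from -0.41 to 0.03, adjusted p = 0.221). Pdcd1lg2 had 3.01, 3.85 and 3.63 CPM against 2.98, 2.38 and 2.66 CPM, also without overlap (log2 fold change -0.39, interval from -0.88 to 0.11, adjusted p = 0.27). Cd40 had 212, 246 and 214 CPM against 257, 211 and 179 CPM (log2 fold change -0.06, interval from -0.30 to 0.19), and Cd86 had 179.9, 185 and 165 CPM against 217, 206 and 156 CPM (log2 fold change 0.13, interval from -0.14 to 0.40). Both overlapped widely, and cKO_M1 replicate 9 was the lowest of its group for both. Groups did not overlap for 6 of the 9 genes, against 33.7% of all tested genes, and the median of the 9 genes was 0.13 beside 0.02 over all. With library totals the share of called genes that were higher went from 48.2% to 61.5%, and the same count of 4 genes was called.

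**Figure D3:**
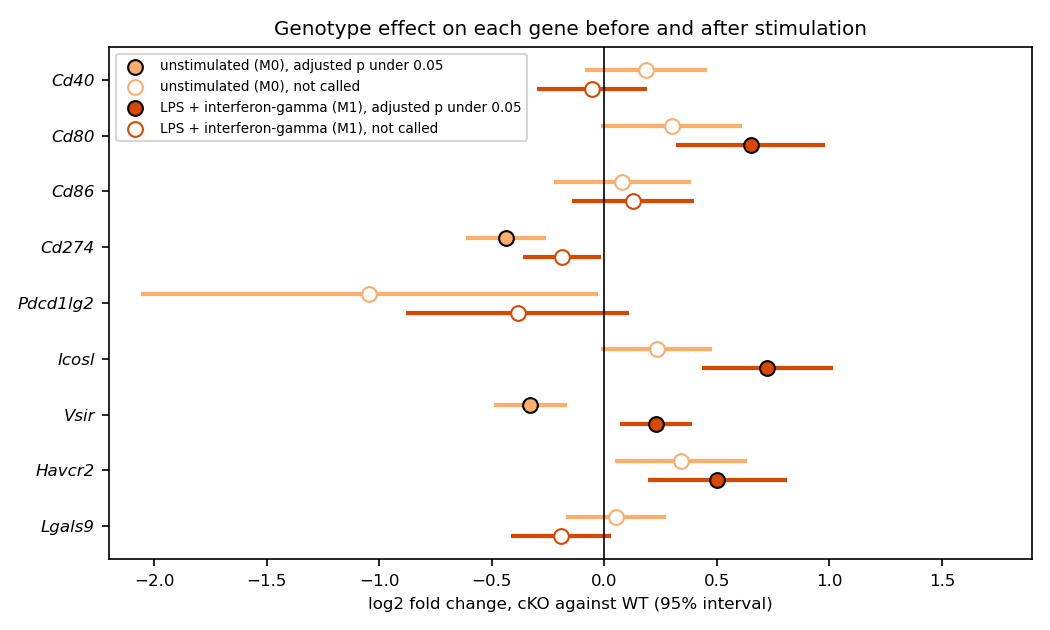
Log2 fold change of cKO against WT for each gene in unstimulated (M0) and stimulated (M1) macrophages, with 95% intervals and filled points for genes called at an adjusted p under 0.05. Vsir is the gene whose called points lie on opposite sides of 0, at -0.33 in M0 and 0.23 in M1.

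Whether the genotype difference itself changed with stimulation was tested as an interaction, the cKO effect in M1 minus that in M0. Of the 9 genes 1 was called, against 8.16% of all tested genes, 4.02% in the same direction. For Vsir the cKO effect was higher in M1 than in M0 by 0.56 on the log2 scale (SE 0.11, 95% interval from 0.33 to 0.78, adjusted p = 0.00638). Its call held under every alternative run, with values from 0.51 to 0.60 and a largest adjusted p of 0.0287. Put as levels, cKO had 480.4 ± 16.7 CPM where WT had 604 ± 37.4 before stimulation, and 253 ± 7.58 where WT had 216 ± 13.5 after. Icosl had an interaction of 0.49 (SE 0.18, adjusted p = 0.105), which passed without cKO_M1 replicate 9 (0.61, adjusted p = 0.0316). Cd274 had 0.25 (SE 0.12, adjusted p = 0.208), Cd80 0.35 (SE 0.21, adjusted p = 0.34) and Havcr2 0.16 (SE 0.20, adjusted p = 0.673), so the difference between the M0 and M1 effects of these genes was not called. The Cd80 value came down to 0.17 without WT_M1 replicate 11. With library totals the share of called interactions that were higher went from 49.3% to 60.5%, and Vsir remained called (0.60, adjusted p = 0.00447).

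Ratios of per-length levels within a library do not depend on scaling between libraries, and they set a ligand beside its rival or its receptor. They are built from the same counts as the levels above and are not separate results. No background over other gene pairs was computed. Cd86 to Cd80, the balance of the CD28 ligands, was 0.800, 0.554 and 0.862 in WT_M0 and 0.605, 0.648 and 0.644 in cKO_M0. After stimulation it was 24.1, 38.6 and 23.2 in WT_M1 and 20.4, 18.0 and 18.8 in cKO_M1. Per length, the CD80 transcript was the more abundant of the pair in all 6 unstimulated libraries and the less abundant in all 6 stimulated libraries, and the M1 libraries of the genotypes did not overlap. Cd274 to Cd80, whose proteins also bind each other on the same cell, was 3.44, 3.24 and 3.44 in WT_M0 against 1.88, 2.07 and 2.12 in cKO_M0. In M1 it was 468, 737 and 445 against 254, 265 and 384. The ratio was lower in every cKO library than in every WT library of the same state.

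Lgals9 to Havcr2, galectin-9 over its receptor TIM-3, was 3.80, 3.93 and 3.80 in WT_M0 against 2.65, 3.35 and 3.43 in cKO_M0. It was 25.7, 40.7 and 25.5 in WT_M1 against 17.3, 17.9 and 18.9 in cKO_M1, again lower in every cKO library. WT_M1 replicate 11 gave the highest value of each ratio that has Cd80 or Havcr2 below the line. Cd274 to Pdcd1lg2 was 135 ± 50.6 for WT and 230.4 ± 143 for cKO before stimulation, and 527 ± 82.5 for WT and 604 ± 105 for cKO after it, and the genotypes overlapped in both states. In each of the 12 libraries PD-L1 was the more abundant of the PD-1 ligand transcripts.

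**Figure D4:**
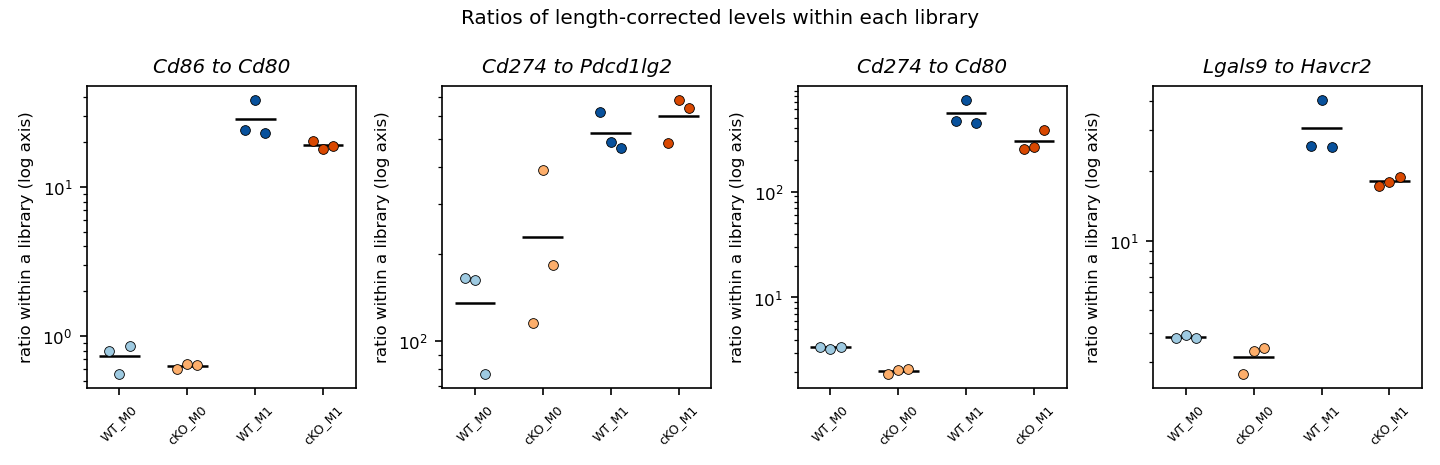
Ratio of the per-length levels of 2 genes within each library (log axes), with a point per library and a line at the mean of 3. Cd86 to Cd80 goes from 0.739 in WT_M0 to 28.6 in WT_M1, and the Cd274 to Cd80 and Lgals9 to Havcr2 points of cKO lie below those of WT in both states.

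The genes whose pattern was most like each member were found by Pearson correlation of log2 CPM over the 12 libraries among 9729 genes. All such values are dominated by the split between M0 and M1 libraries, which most genes share, and are descriptions. Cd274 was most like Il18bp, which encodes the interleukin-18 binding protein (r = 0.9995), at 5.64 CPM in WT_M0 and 546 in WT_M1, and then Pfkfb3, a regulator of glycolysis. Lgals9 was most like the antiviral interferon-stimulated genes Rsad2 (0.999) and Ifit2 (0.998). Cd40 and Cd86 shared Pla2g16 among their nearest genes, with Tspan3 for Cd40 and Idnk for Cd86. Icosl was nearest to Cep68 (0.997) and Platr25 (0.996), Vsir to Accs (0.997) and Sft2d2 (0.995), and Havcr2 to the kinase gene Sgk3 (0.992) and the mitochondrial carrier gene Slc25a24 (0.991). Pdcd1lg2 was nearest to Rnf185 and to Bcl2a1d, a member of the anti-apoptotic BCL2 family (0.994 each). Cd80 had the loosest neighbours, Rcn2 (0.972) and Rnf168 (0.971). Rcn2 repeated its order of groups, with 46.7 CPM in WT_M0, 49.3 CPM for cKO before stimulation, 24.2 for WT and 38.1 for cKO after it.

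Other ligands, receptors and signalling genes around the 9 were read from 8 lists with 95 entries. Of the signalling genes of interferon-gamma and of PD-L1 regulation, 16 of 16 were tested, and in WT 13 rose and 2 fell with stimulation. Socs3, a feedback inhibitor of cytokine signalling, rose by 6.63 on the log2 scale, Irf1, a transcription factor known to drive PD-L1, by 4.03, Jak2 by 2.78 and Stat3 by 1.83. Between genotypes 0 of the 16 were called in M0, where Cd274 was lower (smallest p for Socs3, log2 fold change -0.32, adjusted p = 0.105, and Stat3, -0.20, 0.215). In M1, 5 were higher in cKO and 1 lower: the feedback inhibitor Socs1 was at 296 ± 41.1 CPM in cKO_M1 against 125 ± 41.1 in WT_M1 (log2 fold change 1.24, SE 0.21, adjusted p = 0.000927), with Irf2 higher by 0.53, Socs3 by 0.35 and the kinase gene Jak1 lower (-0.42). Ifngr1, a chain of the interferon-gamma receptor (0.28), and Cmtm6, which stabilizes PD-L1 protein (0.37), were the other two that were higher; they were named to complete the count.

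Of the CD40 adaptors and NF-kB genes, 15 of 15 were tested, and in WT 12 rose and 1 fell with stimulation, led by Tnfaip3 (3.63), Traf1 (3.34), Traf2 (1.75) and Birc3 (1.67). In M0, 1 was called between genotypes, Birc3 (-0.39, adjusted p = 0.0442). In M1, 5 were higher in cKO and 3 lower. Nfkb1, the p105 and p50 subunit, was at 252 ± 13.7 CPM in cKO_M1 against 175 ± 10.1 in WT_M1 (log2 fold change 0.53, SE 0.08, adjusted p = 0.000299) and Map3k14, the NF-kB inducing kinase, was higher by 0.68. The adaptor genes Traf5 (-0.65) and Traf6 (-0.50) were lower.

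The SLAM family and adhesion partners of T cells (11 of 11 tested) rose in 8 cases and fell in 3 in WT, with log2 fold changes of 5.56 for Slamf6, 5.29 for Slamf8, 3.92 for Slamf7 and 2.60 for the LFA-1 ligand Icam1. In M0, 2 were lower in cKO, Slamf8 (-0.68, adjusted p = 0.0230) and Slamf7 (-0.43, adjusted p = 0.0407), and 0 higher. In M1, 4 were lower, Cd84 (-0.46), Slamf1 (-1.17), Icam2 (-0.79) and Ly9 (-0.31), and 2 higher. The Ly9 call was lost without WT_M1 replicate 11 or cKO_M1 replicate 8 (largest adjusted p = 0.105). Of the other inhibitory ligands, receptors and enzymes 12 of 13 were tested, and 9 rose and 1 fell in WT, with 7.10 for the tryptophan-degrading enzyme Ido1, 5.51 for Fgl2, 5.17 for Cd200 and 1.35 for Pirb. In M0, Fgl2 (-0.53, adjusted p = 0.0247) and the ectonucleotidase gene Entpd1 (-0.50, adjusted p = 0.0422) were lower in cKO and 0 were higher. In M1, 3 were lower and 2 higher: Cd200, an inhibitory ligand, was at 58.8 ± 5.52 CPM in cKO_M1 against 140.4 ± 35 in WT_M1 (log2 fold change -1.26, SE 0.17, adjusted p = 0.000186), with Lilrb4a (-0.84) and the CD200 receptor gene Cd200r1 (-0.49) also lower and Pilra (0.71) higher.

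Nectin, TIM and galectin family ligands (9 of 11 tested) rose in 4 cases and fell in 4 in WT, among them Pvr (2.33), Lgals8 (1.74), Ceacam1 (-2.08) and Nectin1 (-4.20). Between genotypes Lgals1, which encodes galectin-1, was higher in cKO_M0 (0.59, adjusted p = 0.0475), and in M1 Nectin2 was higher (0.36, adjusted p = 0.0443) and Lgals3 (-0.39) and Lgals8 (-0.26) lower. The M1 call of Nectin2 was lost under 12 of the 19 alternatives (largest adjusted p = 0.204), among them each cKO_M1 library left out in turn, and that of Lgals8 with library totals and without WT_M1 replicate 10 or cKO_M1 replicate 8 (largest adjusted p = 0.0700). Of the TNF superfamily ligands and receptors 9 of 10 were tested, with 4 higher and 4 lower in WT on stimulation, such as Tnfrsf14 (2.06), Tnfsf9 (1.08), Tnfsf14 (-1.73) and Tnfsf8 (-3.92). Tnfrsf14, the receptor HVEM, was lower in cKO_M0 (-0.48, adjusted p = 0.0463), and 0 of the 9 were called in M1 (smallest p for Tnfrsf9, -1.05, adjusted p = 0.0806, and Tnfsf9, 0.30, 0.157). Tnfrsf9 passed under 6 of the 19 alternatives, with values from -1.34 to -0.76 over all of them. Of the further B7-related and butyrophilin ligands 4 of 8 were tested: on stimulation Cd276 fell (-3.23) and Igsf11, a ligand of VISTA, rose (2.35) in WT, and Igsf11 was lower in cKO_M1 (log2 fold change -0.997, adjusted p = 0.00681). The share called over all tested genes is the background for each of these counts. It was 1.61% between genotypes in M0 and 18.6% in M1. For stimulation in WT it was 71.4%, with 34.2% higher and 37.1% lower. Of the 8 genes called in M0 over these lists, every call was lost when some single libraries were left out, while no direction changed.

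**Figure D5:**
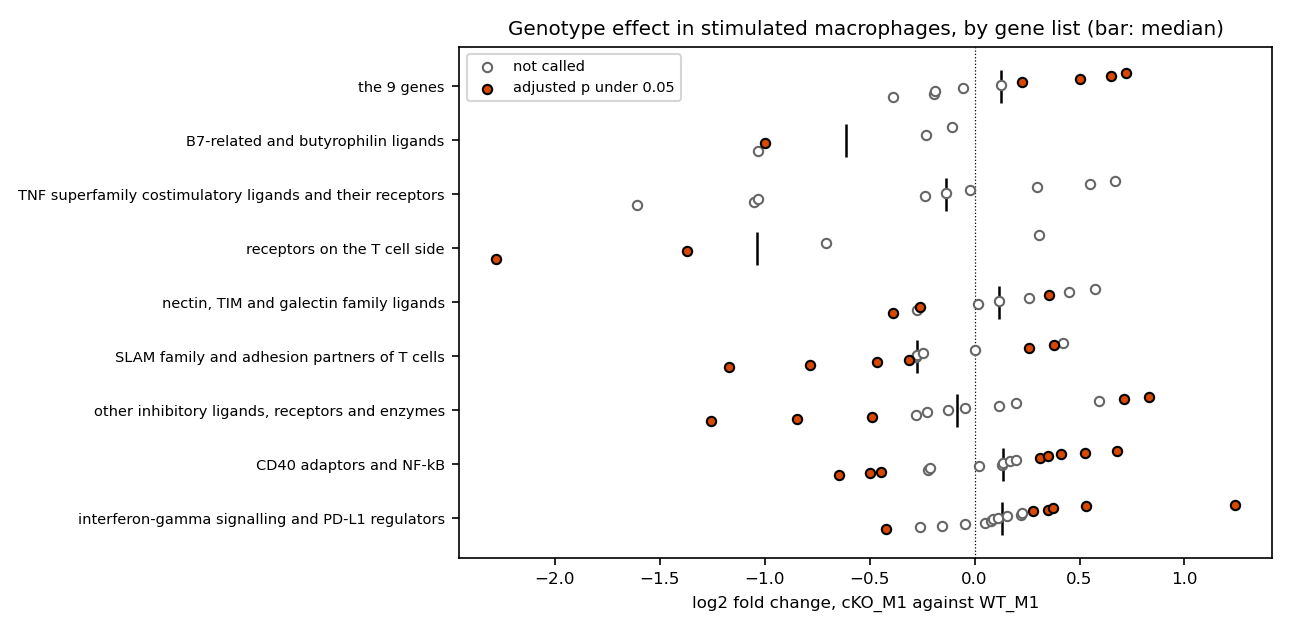
Log2 fold change of cKO_M1 against WT_M1 for each tested gene of the 9 and of the 8 related lists, with filled points for genes called at an adjusted p under 0.05 and a bar at the list's median. Filled points of the 9 genes lie to the right of 0, and those of the other lists on both sides or to the left. The TNF superfamily list has no filled point.

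Markers of other cell types that can carry the same ligands were measured beside these results. For B cells (3 of 7 markers tested) the summed level was 51.8 to 66.4 CPM in WT_M0 and 32.8 to 56.9 in cKO_M0, then 2.57 to 4.63 for WT and 0.455 to 0.738 for cKO in M1, so it moved with stimulation as the genes that fell did. For conventional dendritic cells (5 of 7 tested) it was 62.8 to 70.5, 37.7 to 50.2, 48.0 to 54.3 and 23.0 to 32.4 CPM for WT_M0, cKO_M0, WT_M1 and cKO_M1, lower in every cKO library than in every WT library of the same state. Most of that sum was Itgax, an integrin gene that macrophages also express, at 65.4 ± 4.0 CPM in WT_M0 and 23.8 ± 5.31 in cKO_M1, and it was the 1 marker of the list called between genotypes in each state and the 1 called lower with stimulation. The other 3 called with stimulation, in both genotypes, were higher: in WT Clec9a went from 0.217 ± 0.0381 to 1.67 ± 0.235 CPM, Ccr7 from 0.204 ± 0.0422 to 1.48 ± 0.401 and Xcr1 from 0 counts in every library to 0.93 ± 0.453. T and NK cell markers (1 of 7 tested) summed to at most 0.400 CPM in a library. Neutrophil markers (4 of 8 tested) summed to 0.919 to 2.84 CPM in WT_M0, 0.844 to 2.15 in cKO_M0, 6.49 to 11.03 in WT_M1 and 7.30 to 16.0 in cKO_M1, and stromal and endothelial markers (2 of 5 tested) to 2.08 to 5.28, 1.77 to 2.21, 14.6 to 17.6 and 14.0 to 16.6 CPM. Both sums were thus higher with stimulation, as were the genes that rose. In WT they followed S100a8, at 0.453 ± 0.342 CPM before and 8.04 ± 2.22 after, and Pecam1, at 1.04 ± 0.209 before and 14.7 ± 1.60 after, while the neutrophil gene Mpo fell and Ly6g and Retnlg had 0 counts in 3 of the 4 groups. Of the macrophage markers Mertk was lower in cKO_M0 (log2 fold change -0.72), and in M1 Cd14 (0.79) and Itgam (0.25) were higher in cKO and Cd68 lower (-0.46). The part of these cells or markers in the values of the 9 genes was not tested.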

How the data were processed

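The 9 genes, the related and marker lists and the tests were chosen with earlier results of these data known. All 12 libraries were used, grouped by genotype and treatment label. The authors deposited unnormalized gene counts, 1 column per library, beside a gene length in bases, per the file headers. The submitters' processing notes name featureCounts 2.0.3, HISAT2 2.2.1, Trimmomatic 0.39, SAMtools 1.16.1 and the build GRCm39. No source used here gives the strand, multimapping or annotation settings, so reads of overlapping or antisense genes cannot be told apart. Of the values from 1 to 10, 60.9% were even. The counts were left unchanged, and halved in an alternative. The names of 52073 of 56980 IDs came from a reference table. The other 4907 held 0.156% to 0.243% of a library's counts and stayed in the tests.

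Counts were tested in R 4.3.3 with edgeR 4.0.16: filterByExpr (minimum count 10, minimum total 15), TMM factors (group means 1.21 and 1.22 in M0 and 0.808 and 0.840 in M1, WT and cKO each), 1 mean per group over all 12 libraries, glmQLFit and glmQLFTest (common biological coefficient of variation 0.111), tested first on simulated data. The SE is the absolute log2 fold change over the root of F. Per-length levels and ratios had no test. Within groups, libraries were not identical and differed beyond sampling noise (chi-square per gene 11.9 to 56.7).

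Named were the 9 genes, Zc3h12c, Tnfrsf11a (not called in M0 or M1 between genotypes) and, per list, up to 4 called genes of smallest p per comparison of genotypes and for stimulation in WT, or up to 2 where none was called, plus the 2 genes nearest in pattern with at least 5 CPM. Alternatives were DESeq2 size factors, library totals, no filter, DESeq2 1.42.0, limma-voom (limma 3.58.1), halved counts, the compared libraries alone, and each library left out. Applying them to the related genes was added after seeing the data. Results for 1 further promoter motif and 1 marker gene are not reported here.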

Additional observations from a re-analysis of the deposited data

Results flagged for a closer look

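For Vsir, which encodes VISTA, the cKO effect differed between the states: it was higher in M1 than in M0 by 0.56 on the log2 scale (edgeR interaction, adjusted p = 0.00638). The level was lower in 3 of 3 cKO_M0 libraries than in any WT_M0 library and higher in 3 of 3 cKO_M1 libraries than in any WT_M1 library. Of all tested genes, 8.16% were called for the interaction. Genotypes did not overlap for 26.2% of them in M0 and 33.7% in M1. Within a state, the Vsir call was lost under 9 of 19 alternatives in M0 and 13 of 19 in M1.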

How the results depend on the processing

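Over the alternatives, the tests of the 9 genes gave 797 values with the main direction and side of the threshold, 34 that lost a call, 4 that gained one and 10 that changed sign, none of the last a called value. The number of genes called between genotypes in M0 was 244 and became 1182 without the filter on low counts, 871 with DESeq2, 491 with limma-voom, 373 with halved counts and 394 in the 6 libraries alone, where Pdcd1lg2 was not tested. Leaving out single libraries gave 1 to 452 genes, with 1 without cKO_M0 replicate 3 and 4 without WT_M0 replicate 6. Of the 9 genes, the 2 called in M0 became 1 with library totals and 0 to 3 without single libraries. In M1 the 2818 genes became 3338 with DESeq2, 3221 with library totals and 2175 in the 6 libraries alone. Leaving out single libraries gave 1658 (without WT_M1 replicate 11) to 3082 genes in M1. The 4 of the 9 genes called in M1 became 2 in the 6 libraries alone and 1 (without cKO_M1 replicate 8) to 4 without single libraries. For stimulation the ranges without single libraries were 10319 to 11042 genes in WT and 9998 to 10805 in cKO, with 9 to 9 and 8 to 9 of the 9 genes. The 1233 interactions became 1972 without the filter, 1906 with DESeq2 and 565 to 1576 without single libraries, with 1 to 2 of the 9 genes. The cause of these shifts was not tested.

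Signs changed only for small differences that were not called. Without single libraries, the M0 difference of Cd86 ran from -0.065 to 0.20 and that of Lgals9 from -0.036 to 0.18. In M1, Cd40 became 0.00066 with library totals and ran from -0.21 to 0.050 without single libraries. The interaction ran from -0.071 to 0.19 for Cd86 and from -0.052 to 0.28 for Havcr2. Zc3h12c in M0 ran from -0.20 to 0.025, and Tnfrsf11a from -0.34 to 0.022 in M0 and from -0.24 to 0.17 in M1. Depth limits Pdcd1lg2 in M0, with 2 to 13 counts in a library. No paired analysis was possible because the groups share no replicate numbers.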

Other observations

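The receptors through which T cells read these ligands were mostly near or below the detection limit, with 4 of 11 tested, and Cd28 was the exception. Cd28, the receptor of CD80 and CD86, had 104 to 139.9 CPM in WT_M0 and 82.9 to 114 in cKO_M0, 13.2 to 18.4 in WT_M1 and 4.96 to 8.54 in cKO_M1. It was lower in cKO_M1 than in WT_M1 (log2 fold change -1.37, SE 0.20, adjusted p = 0.000302) and fell with stimulation in WT (-2.97, SE 0.19). Of the 7 T and NK cell markers, Cd3e, Cd3g and Cd8a had 0 counts in every library, Trac had at most 4, Ncr1 at most 2 and Cd3d at most 1 count in a library. Klrb1c, a gene of NK cells, had 7 to 20 counts in WT_M0 and 6 to 10 in cKO_M0. It had 0 counts in WT_M1 and at most 4 in cKO_M1. Like Cd28 it was called lower with stimulation in WT, but Klrb1c was not called in cKO. The gene was picked out after its values were seen, and the source of the signal was not tested. The other 3 tested receptors stayed at a mean of at most 1.39 CPM in any group. Lag3 was lower in cKO_M0 (-3.16, adjusted p = 0.0407) and rose in WT (2.80), Cd226 was lower in cKO_M1 (-2.28, adjusted p = 0.00420) and rose in WT (1.59), and Icos fell in WT (-1.46). These rest on few counts.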
